A study of Saccharomyces cerevisiae with 24 samples.

Results

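The transcriptional response of budding yeast to 12 h in calcium chloride was compared between a strain without calcineurin and its wild type, gene by gene. The comparison is the interaction of strain and treatment, in which the change of the cnb1Δ strain (12 h minus 0 h) has the change of the wild type (WT, 12 h minus 0 h) subtracted from it. Its contrast was between 12 of the 24 libraries of the study, with 3 libraries in each of 4 groups. All 24 libraries set the filter, the scaling and the estimate of the spread. Both strains were haploid Saccharomyces cerevisiae of the BY4741 background, mating type a, with the markers his3delta1, ura3delta0, leu2delta0 and lys2delta0 and with the insertion HYG-TEFp-GFP(Y66F) on chromosome VI. The first group was cnb1delta::KanMx after 12 h in 200 mM CaCl2, the second was cnb1delta::KanMx at 0 h without CaCl2, the third was WT after 12 h in 200 mM CaCl2 and the fourth was WT at 0 h without CaCl2. All cultures grew in synthetic medium with ammonium chloride as the nitrogen source and were diluted every 12 h to keep them in logarithmic growth. Libraries were made from polyadenylated RNA. No culture without CaCl2 was sampled at 12 h, so CaCl2 and time in culture cannot be told apart in either strain. The libraries of a group carry only a number, and the p-values below rest on the spread between such libraries over all 24 of the study.

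Calcineurin is a protein phosphatase that is switched on by calcium and calmodulin, and CNB1 encodes its regulatory subunit, without which the enzyme is inactive. Its best known target in yeast is the transcription factor Crz1, which enters the nucleus when calcineurin removes its phosphates and turns on genes for ion pumps and cell wall synthesis through the calcineurin-dependent response element (CDRE). Calcineurin also acts on other proteins, among them regulators of the pheromone response and of the cell cycle. CNB1 itself had 10, 6 and 11 counts in the cnb1Δ libraries at 12 h and 11, 9 and 0 at 0 h, against 1951, 1771 and 1478 counts in the WT libraries at 12 h and 1221, 996 and 1054 at 0 h. Total counts ran from 18843220 to 22250806 per library. The summed level of 6 genes that mark cells of mating type a was 1030 to 1230 CPM (counts scaled to the size of the library) in cnb1Δ at 12 h and 2630 to 2670 CPM in cnb1Δ at 0 h. In WT it was 493 to 664 CPM at 12 h and 2790 to 3210 CPM at 0 h, and markers of the other mating type stayed at or below 49.2 CPM in each of the 12 libraries. The cnb1Δ libraries numbered 2 stood apart over all genes: chi-square per degree of freedom between replicates was 49.6 and 55.9 with them against 4.61 without them at 12 h, and 32 and 32 against 5.39 at 0 h. SNZ1 and SNO1, genes of the stationary phase list, were also higher in them than in the cnb1Δ libraries numbered 1 and 3. The WT library numbered 2 at 12 h gave 54.8 and 83.5, against 34.9 between the other 2. Of the 114 differences described below, 39 were called without both cnb1Δ libraries numbered 2 and 62 without the WT library numbered 2 at 12 h.

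The strains differed in their response for 114 of the 6253 genes tested, which is 1.82% of them, at a Benjamini-Hochberg adjusted p under 0.05 in edgeR's quasi-likelihood test. The cnb1Δ response lay above that of WT for 61 genes (0.976%) and below it for 53 (0.848%). Each strain by itself responded far more widely: 2649 genes (42.4%) changed between 0 h and 12 h in cnb1Δ, 1385 of them up (22.1%) and 1264 down (20.2%). In WT 2944 (47.1%) changed, 1541 up (24.6%) and 1403 down (22.4%). At 12 h itself 962 genes (15.4%) differed between cnb1Δ and WT, 527 higher in cnb1Δ (8.43%) and 435 lower (6.96%). Over all genes tested, the median difference in response was 0.000816 on the log2 scale, a value that the scaling sets near 0, and 0.0371 under scaling by total counts. In all 114 genes the 3 library responses of one strain lay apart from the 3 of the other, each library response being the log2 CPM of a 12 h library less the mean of that strain's 0 h libraries. The same was true of 39% of all genes tested. At an unadjusted p under 0.05, 869 genes (13.9%) would be counted. None of the 114 differed between cnb1Δ and WT at 0 h at an adjusted p under 0.05 in edgeR, and 2 of all genes tested (0.032%) did, of which CNB1 was 1.

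The 114 genes were sorted by the response of each strain. A response was lost where WT changed and cnb1Δ did not pass the test, dampened where both changed in one direction and cnb1Δ by less, reversed where both changed in opposite directions, and mutant-only where cnb1Δ changed and WT did not pass the test. There were 62 lost, 18 dampened, 10 reversed and 24 mutant-only responses. No gene passed the test in both strains in the same direction with the larger change in cnb1Δ. Of the 24 mutant-only genes, 10 had changes of the same sign in both strains, with only that of cnb1Δ passing. The direction added to a class is that of the WT response, or of the cnb1Δ response for the mutant-only class: 33 responses were lost up and 29 lost down, 7 dampened up and 11 dampened down, 8 reversed up and 2 reversed down, and 19 mutant-only up and 5 mutant-only down. The responses that define the classes are descriptions and were not tested again. Closest to the threshold from inside stood KTR2 (difference −0.60, adjusted p 0.0491 in edgeR) and ICT1 (−1.52, 0.0494). Just outside it stood DFG5 (−0.43, 0.0502) and PYC2 (0.56, 0.0524).

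**Figure D1:**
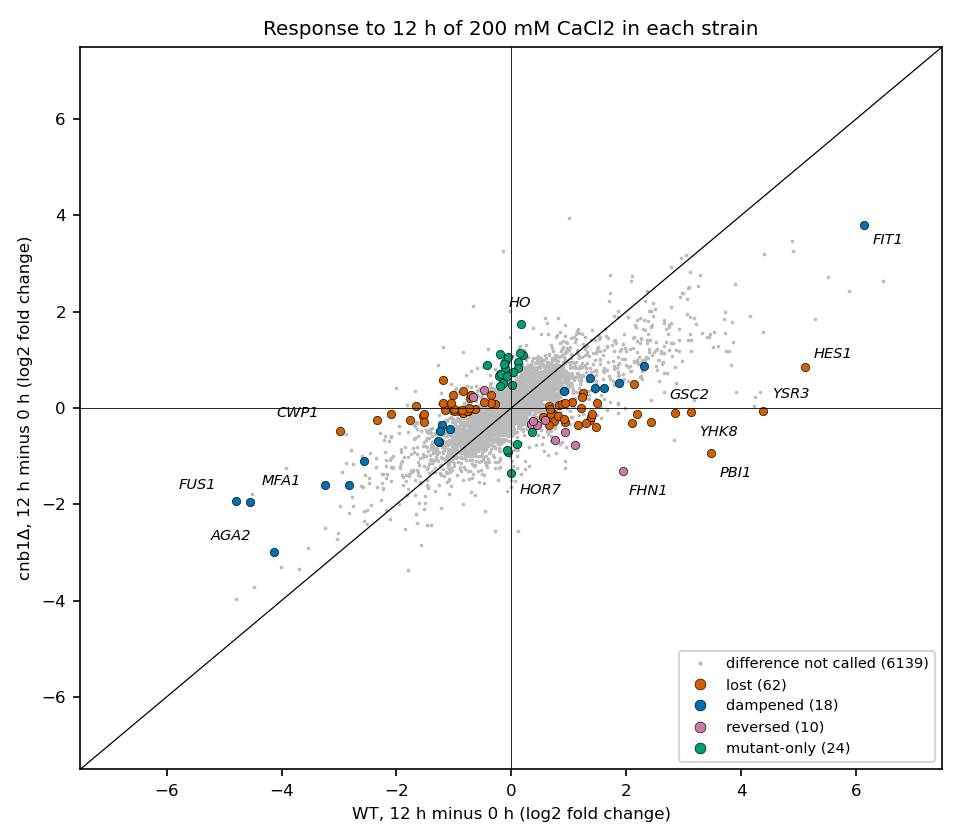
Each point is 1 of the 6253 genes tested, with its log2 fold change from 0 h to 12 h in WT on the horizontal axis and in cnb1Δ on the vertical axis; the diagonal marks equal responses. Lost responses (62) lie along the horizontal axis, mutant-only responses (24) along the vertical axis, dampened ones (18) between the horizontal axis and the diagonal, and reversed ones (10) at the upper left and the lower right of the origin.

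The largest differences were inductions that WT made and cnb1Δ did not. Among lists of lipid and wall genes, 7 of 27 for ergosterol synthesis, 3 of 25 for inositol and phospholipid synthesis, 1 of 30 for sphingolipids and 1 of 43 for the cell wall had a lower response in cnb1Δ, beside 0.848% of all genes tested. The cell wall list also had 1 member with a higher response, and the medians of these lists were −0.56, 0.102, −0.139 and −0.0304. YSR3, which encodes a phosphatase of sphingoid base phosphates, had 9.11, 10.1 and 7.91 CPM in cnb1Δ at 12 h and 10.4, 9.18 and 8.55 CPM in cnb1Δ at 0 h. In WT it had 249, 271 and 255 CPM at 12 h and 11.35, 11.02 and 14.6 CPM at 0 h. The WT libraries at 12 h thus stood apart from the other 9. The difference in response was −4.44 ± 0.56 (log2, SE, n = 3 libraries in each group, adjusted p 0.000737 in edgeR), and the call held without any single library.

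GSC2, the second catalytic subunit of beta-glucan synthase and a long-known target of Crz1, followed the same pattern. It had 87.9, 72.7 and 92.4 CPM in cnb1Δ at 12 h and 96.8, 79.9 and 96.8 CPM at 0 h, against 842, 587 and 996 CPM in WT at 12 h and 119, 111 and 106 CPM at 0 h. The lowest WT library at 12 h, at 587 CPM, stood far above the highest of the other 9, at 119 CPM. The difference was −2.96 ± 0.42 (adjusted p 0.00101 in edgeR). HES1, an oxysterol-binding protein, had 8.29, 8.35 and 8.004 CPM in cnb1Δ at 12 h and 3.68, 5.63 and 4.40 CPM at 0 h. In WT, HES1 had 134, 207 and 114 CPM at 12 h and 4.41, 4.81 and 3.91 CPM at 0 h. The 3 cnb1Δ libraries at 12 h were above all 6 of the 0 h libraries, yet the cnb1Δ response of 0.84 ± 0.58 did not pass the test. The WT response was 5.11 ± 0.61 and the difference −4.27 ± 0.82 (adjusted p 0.00761 in edgeR).

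PBI1, a gene of unknown function, had 10.1, 12.8 and 11.7 CPM in cnb1Δ at 12 h and 22.2, 23.7 and 19.7 CPM at 0 h, against 229, 271 and 238 CPM in WT at 12 h and 23.2, 23.4 and 19.7 CPM at 0 h. PBI1 thus stood lower in CaCl2 in all 3 cnb1Δ libraries and higher in all 3 WT libraries, although its cnb1Δ response of −0.92 ± 0.58 did not pass the test. Its difference of −4.40 ± 0.83 passed (adjusted p 0.00664 in edgeR). YHK8, a presumed drug transporter, differed by −3.21 ± 0.65 (adjusted p 0.0101 in edgeR), with 200, 444 and 211 CPM in the WT libraries at 12 h and 24.6 to 38.3 CPM in the other 9. IZH4 and IZH2, membrane proteins of zinc homeostasis, differed by −2.31 and −1.15. They were the 2 of 13 zinc regulon genes with a lower response, beside 0.848% of all genes tested, and 0 had a higher one. That list's median difference was 0.0765, with 8 of 13 members above 0. The call of IZH2 was lost without any 1 of 4 of the 12 libraries, with adjusted p up to 0.0648. The desaturase OLE1, which makes unsaturated fatty acids, was the most abundant gene described here. It had 2957, 1871 and 3096 CPM in cnb1Δ at 12 h and 3152, 3191 and 3012 CPM at 0 h, against 7848, 9345 and 7921 CPM in WT at 12 h and 3231, 3605 and 2828 CPM at 0 h. The cnb1Δ library numbered 2 at 12 h was the lowest of all, and the difference of −1.62 ± 0.29 passed in edgeR (adjusted p 0.00525) without any single library.

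**Figure D2:**
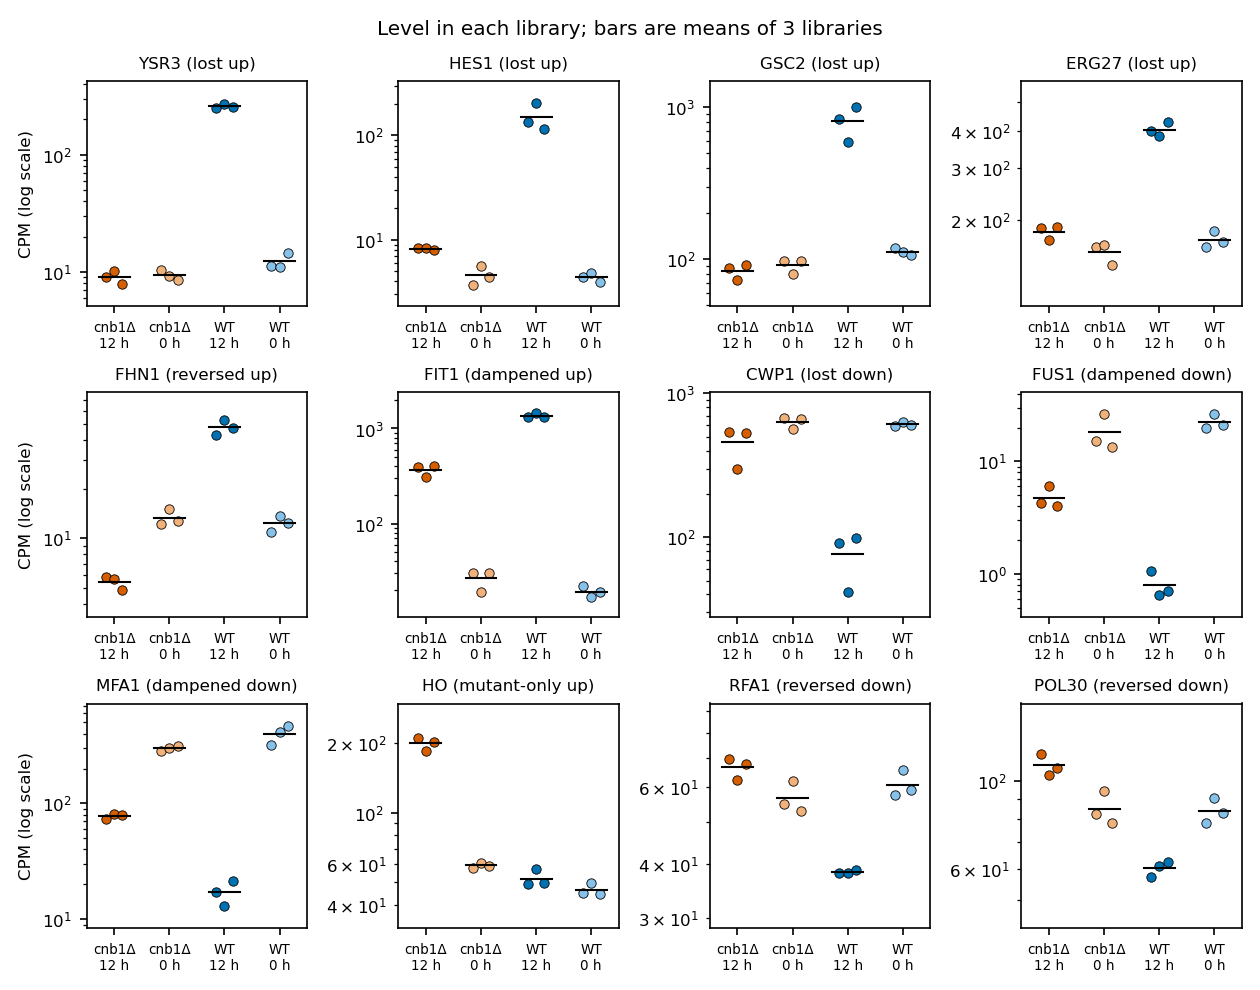
Levels of 12 genes in each library (CPM, log axis) for cnb1Δ at 12 h, cnb1Δ at 0 h, WT at 12 h and WT at 0 h; points are the 3 libraries of a group and bars their mean. YSR3, HES1, GSC2 and ERG27 stand apart in WT at 12 h, FHN1 moves in opposite directions in the strains, FIT1 rises in both, CWP1, FUS1, MFA1, RFA1 and POL30 stand lowest in WT at 12 h, and HO stands highest in cnb1Δ at 12 h.

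Genes of ergosterol synthesis, the pathway to the sterol of yeast membranes, made up 6 of the 33 lost inductions. Of the 27 measured members of the list, 7 had a lower response in cnb1Δ (ERG28, ERG27, ERG2, ERG13, ERG26, ERG25 and ERG8) and 0 a higher one, beside 0.848% of all genes tested in that direction. The median difference of the list was −0.56 and 25 of 27 members were below 0. The list's median response was −0.0964 in cnb1Δ and 0.53 in WT. Scaling by total counts left the median difference at −0.525 but put the cnb1Δ median at 0.105, so the sign of that strain's own median depends on the scaling. In the fit of the 12 libraries alone, 16 of the 27 had a lower response, beside 4.26% of all genes. That fit sorted ERG27 as dampened and ERG28 as reversed in place of lost. Leaving out single libraries left between 3 and 7 of the 27 called, with 3 without the cnb1Δ libraries numbered 2 at 12 h or 3 at 0 h, or the WT libraries numbered 3 at 12 h or 1 or 3 at 0 h.

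ERG27, a keto reductase of the sterol C demethylation complex, had 188, 171 and 189 CPM in cnb1Δ at 12 h and 163, 165 and 141 CPM at 0 h. In WT it had 398, 383 and 426 CPM at 12 h and 162, 184 and 169 CPM at 0 h. The 12 h libraries of both strains stood above their own 0 h libraries, but the cnb1Δ response of 0.22 ± 0.11 did not pass the test. ERG27 differed by −1.004 ± 0.15 (adjusted p 0.00131 in edgeR). ERG28, the scaffold that holds this complex together, differed by −1.52 ± 0.23 (adjusted p 0.00131), with 65.5, 52.2 and 66.6 CPM in cnb1Δ at 12 h against 193, 199 and 188 CPM in WT at 12 h. ERG26 and ERG25, the other enzymes of the same complex, differed by −0.80 and −0.77. ERG2, the sterol isomerase, differed by −0.99 and ERG8, a mevalonate pathway kinase, by −0.71. ERG13, which makes the precursor of mevalonate, belonged to the mutant-only class: cnb1Δ had 409, 358 and 438 CPM at 12 h and 815, 674 and 772 CPM at 0 h, while WT had 706, 708 and 991 CPM at 12 h and 840, 858 and 801 CPM at 0 h. Only the cnb1Δ libraries at 12 h stood apart. The calls of ERG27, ERG28 and ERG26 held without any single library. Those of ERG25, ERG13, ERG2 and ERG8 were lost without any 1 of 7, 8, 11 and 12 libraries, with adjusted p up to 0.112. UPC2, the sterol-sensing activator of these genes, changed by 0.77 in cnb1Δ and 2.09 in WT, and its difference of −1.32 ± 0.35 did not pass (adjusted p 0.0591 in edgeR). UPC2 was chosen for mention after its value was seen.

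The sterol response element TCGTATA, on either strand, is the site by which Upc2 and Ecm22 are known to act. It was searched in the window from 250 bases before to 50 bases after the start of each gene's RefSeq entry in build R64, which for most genes is the start of the coding sequence. It was found for 240 of 5730 genes tested (4.19%), for 6 of the 52 genes with a lower response that have an entry (11.5%) and for 3 of the 60 with a higher one (5%). In the 800 bases before the start, 10 of the 27 ergosterol genes (37%) and 603 of 5730 genes (10.5%) held it. There it also lay in 12 of the 52 genes with a lower response (23.1%) and 10 of the 60 with a higher one (16.7%). In the short window 3 of the 27 ergosterol genes (11.1%) held it, ERG13, ERG2 and ERG8. The sites of the 2 that are lost inductions are shown 5′ to 3′ on the strand of the gene, with the element or its reverse complement in capitals.
ERG2 (chrXIII:667341-667369, plus strand): aaccacggcccTCGTATAagccgcaagga
ERG8 (chrXIII:712153-712181, plus strand): atgcgtttttcTATACGAgatctaaaagg
In ERG2 the element begins 185 bases before the start and in ERG8 152 bases before it. A match is only a match of letters, and so is the absence of one in ERG27, ERG28, ERG26 and ERG25.

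Other lost inductions touch fatty acids and glycerolipids. FAS1, the beta subunit of fatty acid synthase, had 1645, 1415 and 1667 CPM in cnb1Δ at 12 h and 1771, 1651 and 1719 CPM at 0 h, against 3002, 2815 and 3540 CPM in WT at 12 h and 1853, 2022 and 1909 CPM at 0 h. The WT libraries at 12 h were the highest 3. The difference was −0.81 ± 0.20 (adjusted p 0.0324 in edgeR), and the call was lost without any 1 of 11 of the 12 libraries (adjusted p up to 0.0982). NEM1, part of the phosphatase that governs the balance of phospholipid and triglyceride synthesis, differed by −1.23. ALE1, an acyltransferase of lysophospholipids, differed by −0.93, a call lost without any 1 of 10 libraries (adjusted p up to 0.117 in edgeR). ATF2, which acetylates sterols, differed by −1.57. PAU6, a seripauperin gene, differed by −1.62, but its coding sequence is 100% identical to another gene over 363 bases and 12 copies in all are at least 90% identical, so its reads cannot be assigned with certainty. MNC1, YNR064C and COS10 differed by −2.41, −2.72 and −1.86. The call of MNC1 was lost without any 1 of 3 libraries (adjusted p up to 0.0566).

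The 16 measured Crz1 targets of the list moved less uniformly at 12 h than GSC2. Of them, 1 (GSC2) had a lower response in cnb1Δ, beside 0.848% of all genes tested, and 0 a higher one. The median difference was −0.442 and 15 of 16 members were below 0 (14 of 16 under scaling by total counts). In the fit of the 12 libraries alone, CMK2, YPS1 and PHO89 were called as well, 4 of 16 in all. CMK2, a calmodulin-dependent kinase, had 28.9, 26.8 and 28.2 CPM in cnb1Δ at 12 h and 34.3, 31.2 and 31.0 CPM at 0 h, against 90.1, 65.3 and 85.3 CPM in WT at 12 h and 56.6, 43.4 and 53.6 CPM at 0 h. The groups did not overlap, and the WT values were above the cnb1Δ values at both times. Its difference was −0.85 ± 0.45 over the 24 libraries (adjusted p 0.412 in edgeR) and −0.86 ± 0.17 over the 12 (adjusted p 0.00775). PMC1, the calcium pump of the vacuole and the classical Crz1 target, had 70.5, 62.1 and 68.7 CPM in cnb1Δ at 12 h and 78.1, 60.3 and 71.1 CPM at 0 h. In WT, PMC1 had 121, 75.7 and 116 CPM at 12 h and 83.0, 69.6 and 78.2 CPM at 0 h. The WT library numbered 2 at 12 h lay among the 0 h libraries, and the difference of −0.50 ± 0.25 did not pass (adjusted p 0.385). CRH1, a cell wall transglycosidase, rose in both strains, by 0.83 in cnb1Δ and 1.16 in WT, and its difference of −0.33 ± 0.21 did not pass (adjusted p 0.533). RCN1, a regulator of calcineurin, changed by 0.10 ± 0.20 in cnb1Δ and 0.16 ± 0.20 in WT, and its difference of −0.05 ± 0.29 did not pass (adjusted p 0.968).

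Of the 18 genes for calcium handling and calcineurin, 0 were called in either direction over the 24 libraries, and 2 with a lower response over the 12. Among these 18 the Golgi calcium pump PMR1 differed by −0.49 ± 0.16 (adjusted p 0.155 in edgeR), the transcription factor gene CRZ1 by 0.36 ± 0.13 (0.18) and the catalytic subunit genes CNA1 and CMP2 by 0.31 ± 0.16 (0.408) and 0.38 ± 0.17 (0.297). The vacuolar exchanger gene VCX1 differed by −0.04 ± 0.23 (0.972). The CDRE was searched as GNGGCTCA or GNGGCGCA on either strand. In the short window, 109 of 5730 genes (1.90%) held it, 2 of the 16 Crz1 targets (PMC1 and GYP7), and 1 of the 52 genes with a lower response. That gene is YNR064C, a lost induction, with 0.911, 1.08 and 1.04 CPM in cnb1Δ at 12 h and 1.26, 1.27 and 1.19 CPM at 0 h, against 7.75, 6.01 and 10.3 CPM in WT at 12 h and 1.40, 1.76 and 1.29 CPM at 0 h. Its match, in capitals, is the reverse complement of the second form and begins 144 bases before the start.
YNR064C (chrXIV:750134-750163, minus strand): tgcctagggacTGCGCCGCacataatcgtg
In the short window 0 of the 27 ergosterol genes and 0 of the 60 genes with a higher response held the CDRE. In the 800-base window 6.11% of all genes held it, 6 of the 16 Crz1 targets (37.5%) and 8 of the 27 ergosterol genes (29.6%). There it also lay in 6 of the 52 genes with a lower response (11.5%): ERG28, ERG8, FHN1, HOR7, SRO77 and YNR064C. The 60 genes with a higher response had 3 (5%).

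**Figure D3:**
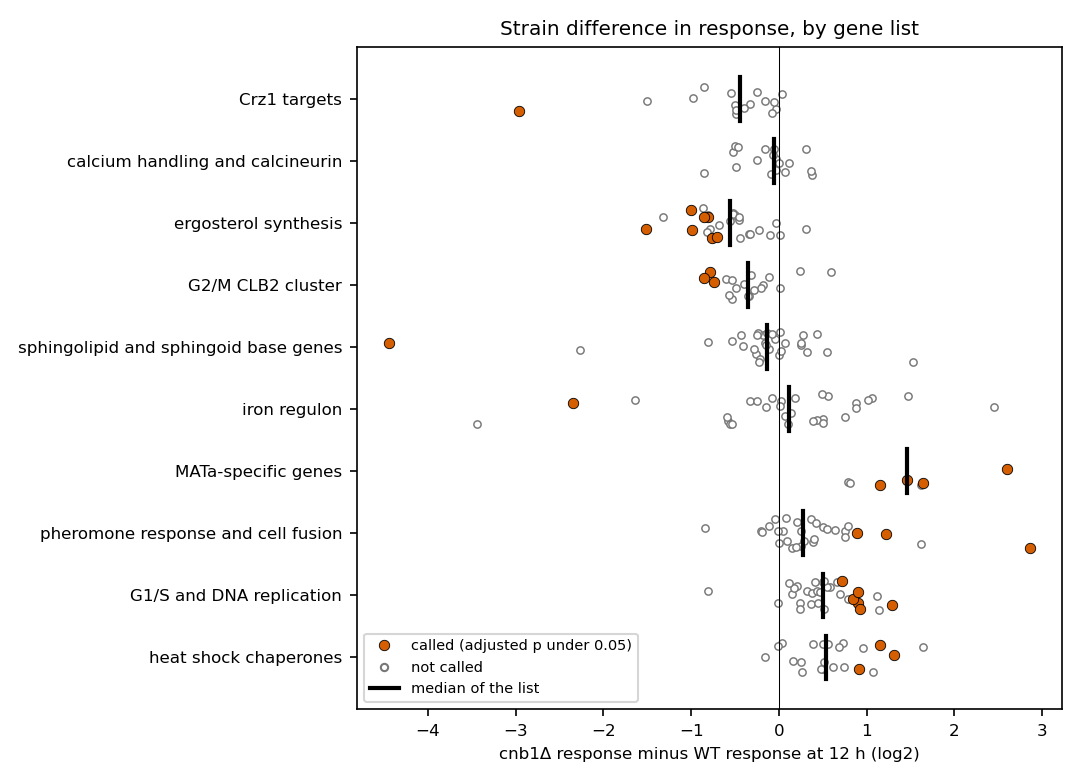
Difference in response between cnb1Δ and WT (log2) for the members of 10 gene lists; filled points passed the test in edgeR, open points did not, and bars are list medians. The 27 ergosterol genes have a median of −0.56 with 7 filled points, all below 0, and the 7 MATa-specific genes a median of 1.46 with 4 filled points, all above 0.

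In 8 genes the induction of WT was turned into a decrease in cnb1Δ. FHN1, a membrane protein related to those of eisosomes, had 5.79, 5.62 and 4.83 CPM in cnb1Δ at 12 h and 12.2, 15.01 and 12.8 CPM at 0 h, against 42.8, 52.9 and 47.4 CPM in WT at 12 h and 10.97, 13.7 and 12.4 CPM at 0 h. The 0 h libraries of the strains overlapped, and the 12 h libraries lay below them in cnb1Δ and above them in WT. The difference was −3.25 ± 0.63 (adjusted p 0.00769 in edgeR). ATF1, an alcohol acetyltransferase, had 65.5, 56.4 and 71.9 CPM in cnb1Δ at 12 h and 94.0, 89.5 and 90.3 CPM at 0 h. In WT it had 164, 220 and 181 CPM at 12 h and 92.8, 106 and 95.2 CPM at 0 h, and the difference was −1.44 ± 0.27 (adjusted p 0.00614). The protein phosphatase gene PPQ1 differed by −0.84 ± 0.14 (adjusted p 0.00394). SCM4 and TDA4, of unknown function, differed by −1.89 and −1.41, and FAA4, which activates fatty acids, by −0.79. The call of SCM4 was lost without any 1 of 4 libraries (adjusted p up to 0.0652) and that of FAA4 without any 1 of 9 (up to 0.107). TMN2 and THI22 complete the class at −0.69 and −0.66, with calls lost without any 1 of 10 and 6 libraries (up to 0.0908 and 0.0708). Of the 10 reversed genes of both directions, 2 kept the class under scaling by total counts, which raises the response of the median gene to 0.221 in cnb1Δ and 0.182 in WT.

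In 7 genes both strains rose and cnb1Δ by less. FIT1, a cell wall mannoprotein that retains iron-carrying siderophores, had 396, 309 and 403 CPM in cnb1Δ at 12 h and 30.3, 19.1 and 30.2 CPM at 0 h. In WT it had 1320, 1470 and 1312 CPM at 12 h and 21.8, 16.8 and 19.2 CPM at 0 h. FIT1 thus rose 13.9-fold in cnb1Δ and 70.8-fold in WT, a difference of −2.35 ± 0.39 (log2, adjusted p 0.00277 in edgeR). It was 1 of 30 members of the iron regulon with a lower response, none had a higher one, and the list's median difference was 0.12. PLB2, a phospholipase, rose by 0.88 in cnb1Δ and 2.31 in WT (log2), with a difference of −1.43 (adjusted p 0.00825 in edgeR). YEH1, which releases sterols from their stored esters, rose by 0.41 in cnb1Δ and 1.46 in WT, with a difference of −1.04 (adjusted p 0.00761). GUP2, ROX3, ARG80 and YDR061W differed by −1.20, −0.75, −0.56 and −1.36. The calls of ROX3, a Mediator subunit, and ARG80, a regulator of arginine genes, were lost without any 1 of 8 and 10 libraries (adjusted p up to 0.101 and 0.102).

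The 29 lost decreases were more varied in function. CWP1, a major mannoprotein of the cell wall, had 540, 297 and 534 CPM in cnb1Δ at 12 h and 678, 567 and 662 CPM at 0 h, against 90.5, 41.5 and 98.2 CPM in WT at 12 h and 588, 632 and 603 CPM at 0 h. The library numbered 2 was the lowest at 12 h in both strains, and the WT libraries at 12 h lay below all the others. CWP1 differed by 2.51 ± 0.37 (adjusted p 0.00117 in edgeR), the largest difference among lost decreases with a standard name. Some genes of nitrogen use were among them. Of 26 nitrogen catabolite genes tested, 2 (CAR1 and GAT1) had a higher response, beside 0.976% of all genes tested, and 0 a lower one. The list's median difference was 0.136, with 11 of 26 below 0. In the fit of the 12 libraries alone, 4 were higher and 2 lower, beside 4.24% and 4.26% of all genes. Of 58 genes of amino acid synthesis, 2 (GDH1 and HIS2) had a higher response and 0 a lower one, with a median of 0.336. GDH1, the main enzyme that fixes ammonium into glutamate, had 592, 603 and 599 CPM in cnb1Δ at 12 h and 590, 635 and 555 CPM at 0 h, against 386, 353 and 408 CPM in WT at 12 h and 629, 632 and 647 CPM at 0 h. It differed by 0.75 ± 0.12 (adjusted p 0.00172). CAR1, the arginase, differed by 1.37 ± 0.25 (adjusted p 0.00613), and GAT1, an activator of nitrogen catabolite genes, by 0.85 ± 0.18 (adjusted p 0.0132), a call lost without the WT library numbered 1 at 0 h (0.0513). HIS2 and LPD1, enzymes of histidine synthesis and of the mitochondrial keto acid dehydrogenases, differed by 0.73 and 0.69. The call of HIS2 was lost without any 1 of 8 libraries (adjusted p up to 0.116).

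Other lost decreases were in regulators. MDG1, a membrane protein that acts in pheromone G protein signalling, had 36.5, 36.4 and 33.9 CPM in cnb1Δ at 12 h and 37.4, 28.8 and 37.4 CPM at 0 h, against 13.1, 7.75 and 11.7 CPM in WT at 12 h and 36.9, 33.1 and 32.3 CPM at 0 h. The WT libraries at 12 h lay below the other 9, and MDG1 differed by 1.70 ± 0.27 (adjusted p 0.00172 in edgeR). PHD1, an activator of filamentous growth, differed by 1.52 and NFG1, a negative regulator of it, by 2.09. Their calls were lost without any 1 of 2 and 10 libraries, with adjusted p up to 0.0534 and 0.106. The carnitine carrier gene CRC1 differed by 1.96 at low level, with 3.60 to 5.23 CPM in cnb1Δ at 12 h against 0.642 to 1.20 CPM in WT at 12 h, and its call was lost without any 1 of 4 libraries (adjusted p up to 0.0664). CLB6 and MSA2, a cyclin and a regulator of the start of the cell cycle, differed by 1.29 each, with calls lost without any 1 of 3 and 5 libraries (adjusted p up to 0.0601 and 0.0853). Of the 29, 3 are genes of Ty retrotransposons (YDR261C-D, YJR027W and YOL103W-B) with 30 copies each that are at least 90% identical, and their reads cannot be assigned with certainty. YMR194C-A has no entry in the RefSeq annotation used here.

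The dampened decreases included genes of mating, among them MFA1, MFA2, FUS1, SST2, BAR1 and AGA2. Cells of mating type a secrete the a-factor encoded by MFA1 and MFA2, and the pheromone pathway acts through Ste12 at the pheromone response element. MFA1 had 72.8, 81.0 and 79.1 CPM in cnb1Δ at 12 h and 282, 301 and 314 CPM at 0 h, against 17.0, 13.0 and 21.6 CPM in WT at 12 h and 320, 414 and 469 CPM at 0 h. The 4 groups did not overlap. MFA1 differed by 2.60 ± 0.36 (adjusted p 0.00099 in edgeR). FUS1, needed for fusion of mating cells, had 4.24, 6.06 and 4.03 CPM in cnb1Δ at 12 h and 15.3, 26.2 and 13.4 CPM at 0 h. In WT it had 1.06, 0.642 and 0.699 CPM at 12 h and 20, 26.2 and 20.9 CPM at 0 h, and it differed by 2.86 ± 0.53 (adjusted p 0.00576). SST2, which turns the pheromone signal off, had 60.5, 66.9 and 65.9 CPM in cnb1Δ at 12 h and 185, 214 and 187 CPM at 0 h. In WT, SST2 had 30.7, 25.3 and 34.6 CPM at 12 h and 200, 233 and 205 CPM at 0 h, with a difference of 1.22 ± 0.22 (adjusted p 0.00551). These 3 calls held without any single library.

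BAR1, the protease that degrades alpha-factor, differed by 1.65 ± 0.40 (adjusted p 0.0382 in edgeR), MFA2 by 1.46 ± 0.31 (0.0156) and AGA2, the binding subunit of a-agglutinin, by 1.15 ± 0.26 (0.0208). Their calls were lost without any 1 of 11, 2 and 7 libraries, with adjusted p up to 0.116. RAM1, a subunit of the enzyme that attaches a lipid to a-factor, differed by 0.64, a call lost without any 1 of 11 libraries (up to 0.129). All 7 measured MATa-specific genes stood above 0, with a median of 1.46, and 4 were called, beside 0.976% of all genes tested in that direction. Leaving out single libraries left 1 to 3 of the 7 called, with 1 without the WT library numbered 2 at 12 h. The 3 that did not pass were STE2 (0.78 ± 0.36), STE6 (0.81 ± 0.26) and ASG7 (1.61 ± 0.52), named after their values were seen. All 7 fell in both strains, with a median response of −1.33 in cnb1Δ and −2.95 in WT. Of the 30 genes of pheromone response and cell fusion, 3 had a higher response (FUS1, SST2 and PRM5) and 0 a lower one. The list's median difference was 0.272, and members that did not pass include the transcription factor gene STE12 (0.20 ± 0.20), FIG1 (0.76 ± 0.78) and the kinase gene STE7 (0.05 ± 0.14).

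The pheromone response element TGAAACA, on either strand, lay in the short window of 7 of the 11 dampened decreases (63.6%) and of 421 of all 5730 genes (7.35%). It lay in 12 of the 60 genes with a higher response (20%) and in 1 of the 52 with a lower one (1.92%). The motif was chosen after the classes were seen. The sites are shown 5′ to 3′ on the strand of the gene with the element in capitals, to let their flanks be compared.
FUS1 (chrIII:71605-71633, plus strand): tggtgcgatgaTGAAACAaacatgaaacg
FUS1 (chrIII:71632-71660, plus strand): cgtctgtaattTGAAACAaataacgtaat
MFA2 (chrXIV:352208-352236, plus strand): aggaacgaaaaTGAAACAtgcatgtcaga
BAR1 (chrIX:322147-322175, plus strand): gccagctattcTGAAACAcaccacattat
AGA2 (chrVII:437015-437043, minus strand): aattaagggacTGTTTCAtaccttcagat
TEC1 (chrII:408999-409027, plus strand): tatattaagttTGAAACAaaaggcttgct
TEC1 (chrII:409064-409092, plus strand): ataaatgtttaTGAAACAggagattcttc
SST2 (chrXII:1041594-1041616, minus strand): aatttTGAAACAatgatcccaat
RAM1 (chrIV:296419-296447, minus strand): aagcttgaaacTGAAACAcgcgaaagtgg
AGA2 carries it as the reverse complement, and the site of SST2 is cut short by the edge of the window. TEC1, a partner of Ste12, differed by 0.86 (a call lost without any 1 of 5 libraries, adjusted p up to 0.0648 in edgeR). The sites begin between 94 and 245 bases before the start. The whole window of FUS1 (chrIII:71553-71852, plus strand, 300 bases) follows, with both elements in capitals.
FUS1 window: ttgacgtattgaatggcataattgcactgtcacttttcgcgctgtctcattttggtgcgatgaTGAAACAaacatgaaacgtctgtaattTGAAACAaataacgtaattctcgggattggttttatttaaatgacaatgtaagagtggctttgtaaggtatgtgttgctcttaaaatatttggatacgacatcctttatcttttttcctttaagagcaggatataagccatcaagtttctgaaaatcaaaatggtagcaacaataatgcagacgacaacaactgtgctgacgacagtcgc

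Some genes of the start of the cell cycle and of DNA replication had a higher response in cnb1Δ. The 2 reversed decreases were RFA1, the large subunit of the single-strand binding protein RPA, and POL30, the sliding clamp PCNA. RFA1 had 69.8, 62.2 and 67.8 CPM in cnb1Δ at 12 h and 54.8, 61.9 and 52.9 CPM at 0 h, against 38.0, 38.2 and 38.7 CPM in WT at 12 h and 57.4, 65.6 and 59.0 CPM at 0 h. POL30 had 117, 104 and 108 CPM in cnb1Δ at 12 h and 82.4, 94.4 and 78.3 CPM at 0 h, against 57.0, 60.9 and 62.4 CPM in WT at 12 h and 78.1, 90.7 and 82.9 CPM at 0 h. In both genes the 12 h libraries lay above the 0 h libraries of their strain in cnb1Δ and below them in WT. RFA1 differed by 0.90 ± 0.13 (adjusted p 0.00101 in edgeR) and POL30 by 0.85 ± 0.13 (0.00131), and neither call depended on a single library.

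HO, the endonuclease of mating type switching, had the largest mutant-only rise. It had 210, 185 and 201 CPM in cnb1Δ at 12 h and 57.7, 60.8 and 59.0 CPM at 0 h, against 49.0, 57.0 and 49.7 CPM in WT at 12 h and 45.01, 49.6 and 44.5 CPM at 0 h. Only the cnb1Δ libraries at 12 h stood apart, at 3.36 times the 0 h level in cnb1Δ and 1.12 times in WT, and the difference was 1.59 ± 0.21 (adjusted p 0.000737 in edgeR). SWI4, the DNA-binding subunit of the factor that turns on G1 cyclins and HO, had 39.8, 37.9 and 42.3 CPM in cnb1Δ at 12 h and 17.1, 21.4 and 23.3 CPM at 0 h. In WT, SWI4 had 15.8, 15.6 and 15.6 CPM at 12 h and 17.7, 17.3 and 15.6 CPM at 0 h, with a difference of 1.06 ± 0.26 (adjusted p 0.0363), a call lost without any 1 of 11 libraries (up to 0.137). STB1, a partner of G1 transcription factors, differed by 1.03, a call lost without the cnb1Δ library numbered 1 at 0 h (0.052). The polymerase genes POL1 and POL12 of polymerase alpha and POL2 of polymerase epsilon differed by 0.90, 0.92 and 0.72. The calls of POL1 and POL2 held without any single library but were lost under scaling by total counts (adjusted p 0.0597 and 0.0668 in edgeR), and in all in 6 and 7 of 15 other alternatives. POL12 lost its call without any 1 of 12 libraries (adjusted p up to 0.159). ABF1, a general DNA-binding factor, and AIM3, an actin patch protein, differed by 1.11 and 1.31, and the call of ABF1 was lost without any 1 of 7 libraries (up to 0.087).

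Of the 31 genes of the G1/S and DNA replication list, 6 had a higher response in cnb1Δ (CLB6, POL12, RFA1, POL1, POL30 and POL2), beside 0.976% of all genes tested, and 0 a lower one. The count was 4 under scaling by total counts and 2 without both cnb1Δ libraries numbered 1 or numbered 3. The median difference was 0.502, and 29 of 31 members were above 0. The list's median response was 0.669 in cnb1Δ and 0.0941 in WT. In the fit of the 12 libraries alone, 18 had a higher response, beside 4.24% of all genes, and 1 a lower one. CLN1 and CLN2, the G1 cyclins, did not pass over the 24 libraries, with differences of 0.44 ± 0.28 and 1.12 ± 0.31 (adjusted p 0.531 and 0.0764 in edgeR). They were named after their values were seen.

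The MCB element ACGCGT, a palindrome known as the site of the factor MBF at G1/S genes, lay in the short window of 9 of the 60 genes with a higher response (15%), in 0 of the 52 with a lower one and in 182 of all 5730 (3.18%). The SCB element CGCGAAA, on either strand, lay in 9 of the 60 (15%), in 0 of the 52 and in 204 of all 5730 (3.56%). Both motifs were chosen after the classes were seen. The MCB sites of the replication genes are shown on the strand of the gene, with the element in capitals.
RFA1 (chrI:158768-158795, minus strand): ggaaaaatgtcACGCGTaaaaattagac
RFA1 (chrI:158738-158765, minus strand): ggcgacaaaagACGCGTgaactaacata
POL30 (chrII:425945-425972, minus strand): caaaacgcgaaACGCGTaactttttttt
POL1 (chrXIV:429868-429895, plus strand): catctattcaaACGCGTtaaaatttttt
POL1 (chrXIV:429903-429930, plus strand): ctataagtaaaACGCGTcgcgtgtatcc
POL12 (chrII:153816-153843, minus strand): tagcgtggtagACGCGTaattttttttt
POL12 (chrII:153793-153820, minus strand): tttttaccgtgACGCGTctcaccagagt
POL2 (chrXIV:148086-148113, plus strand): gggtaaccagaACGCGTaagtttcttgc
RFA1, POL1 and POL12 carry 2 elements each. MSA2, ACM1, ERP3 and YBL086C are the other 4 genes with a match. The window of RFA1 (chrI:158570-158869, minus strand, 300 bases) shows both of its elements.
RFA1 window: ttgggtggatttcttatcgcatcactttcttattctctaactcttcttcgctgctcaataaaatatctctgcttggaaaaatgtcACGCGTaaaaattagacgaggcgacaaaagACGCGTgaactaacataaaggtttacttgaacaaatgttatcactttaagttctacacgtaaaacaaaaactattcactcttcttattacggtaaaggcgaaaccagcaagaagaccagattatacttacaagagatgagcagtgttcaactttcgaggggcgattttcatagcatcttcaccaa

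Of 19 measured genes of the G2/M CLB2 cluster, 3 had a lower response in cnb1Δ (CLB2, HOF1 and CLB1), beside 0.848% of all genes tested, and 0 a higher one, with a median difference of −0.354 and 16 of 19 members below 0. CLB2, the main mitotic cyclin, had 51.1, 43.3 and 53.3 CPM in cnb1Δ at 12 h and 67.0, 69.9 and 71.3 CPM at 0 h, against 88.8, 102 and 87.3 CPM in WT at 12 h and 77.7, 73.8 and 66.0 CPM at 0 h. CLB2 differed by −0.85 ± 0.21 (adjusted p 0.0399 in edgeR), a call lost without any single one of the 12 libraries (adjusted p up to 0.11) and with DESeq2's size factors. HOF1, a protein of the contractile ring, differed by −0.79 and CLB1 by −0.74, with calls lost without any 1 of 9 and 3 libraries (up to 0.0899 and 0.0592). The list had 0 to 2 called members when single libraries were left out, and 1 under scaling by total counts. DESeq2, the 12 libraries alone and both fits with a replicate block each called 1 member higher as well. The other mutant-only decreases were HOR7 and GSH1. HOR7, a small protein of salt-stressed cells, had 90.3, 76.6 and 88.5 CPM in cnb1Δ at 12 h and 227, 177 and 245 CPM at 0 h, against 379, 179 and 424 CPM in WT at 12 h and 337, 297 and 352 CPM at 0 h. The WT library numbered 2 at 12 h was the lowest of the 6 WT libraries. HOR7 differed by −1.34 ± 0.30 (adjusted p 0.0196), a call lost without any 1 of 5 libraries (up to 0.0661). GSH1, the first enzyme of glutathione synthesis, differed by −0.86 ± 0.17 (adjusted p 0.00865).

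Of 22 heat shock chaperones, 3 had a higher response in cnb1Δ (STI1, CUR1 and AHA1), beside 0.976% of all genes tested, and 0 a lower one, with a median difference of 0.537. The median response was 0.328 in cnb1Δ and −0.353 in WT, and in the fit of the 12 libraries alone 11 of the 22 were higher, beside 4.24% of all genes. The call of CUR1, a sorting factor for misfolded proteins, was lost without any 1 of 8 libraries (adjusted p up to 0.112 in edgeR). STI1, a partner of Hsp90, had 194, 210 and 187 CPM in cnb1Δ at 12 h and 98.8, 111 and 109 CPM at 0 h, against 79.0, 64.1 and 73.6 CPM in WT at 12 h and 99.4, 91.1 and 98.7 CPM at 0 h. It differed by 1.31 ± 0.27 (adjusted p 0.0111 in edgeR). The call of STI1 held without any single library but was lost in 6 of 15 other alternatives. One of them left out both cnb1Δ libraries numbered 2 (adjusted p 0.0642 in edgeR). AHA1, another partner of Hsp90, differed by 0.92 ± 0.16 (adjusted p 0.00424). Of 20 genes of the cell wall integrity pathway, SWI4 and KDX1 had a higher response, beside 0.976% of all genes tested. A lower response was called for 0 of the 20, and the list's median difference was 0.0734, with 8 members below 0. KDX1, a kinase-like protein of that pathway, had 44.5, 55.8 and 44.1 CPM in cnb1Δ at 12 h and 25.9, 28.6 and 26.5 CPM at 0 h, against 21.0, 19.95 and 21.3 CPM in WT at 12 h and 18.5, 19.96 and 19.2 CPM at 0 h. The cnb1Δ values were above those of WT at both times. KDX1 differed by 0.73 ± 0.16 (adjusted p 0.0194), a call lost without any 1 of 6 libraries (up to 0.0775). PRM5 and DSE1, a pheromone-regulated membrane protein and a protein of daughter cells, differed by 0.89 and 0.94. The call of PRM5 was lost without any 1 of 9 libraries (up to 0.124).

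Libraries of 48 h and 72 h did not enter the contrast that made the classes, though they share in the estimate of the spread, and give a second readout of the members. At 48 h, 306 of 6253 genes (4.89%) differed between cnb1Δ and WT in edgeR, 169 of them higher in cnb1Δ (2.7%) and 137 lower (2.19%). At 72 h, 570 (9.12%) differed, 292 higher (4.67%) and 278 lower (4.45%). Of the 53 genes with a lower response at 12 h, 32 were lower in cnb1Δ at 48 h and 36 at 72 h, 30 at both times, and 0 were higher at either. Of the 61 with a higher response, 22 were higher in cnb1Δ at 48 h and 29 at 72 h, 21 at both times, and POL30 was lower at 72 h (−0.39, adjusted p 0.01). None of the 114 passed the test at 0 h, where 2 of all genes tested did, so leaving out members called at 0 h removes none. Differences at 0 h below the threshold remain possible. The largest among the 114 was that of MNC1 (−1.12 ± 0.37), and HOR7 (−0.60 ± 0.21) and KDX1 (0.49 ± 0.11) also stood apart from 0.

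Among the 33 lost inductions, 21 were lower in cnb1Δ at 48 h and 23 at 72 h, and among the 8 reversed inductions 6 and 7. MNC1 was lower by −3.75 at 48 h and −4.98 at 72 h, YSR3 by −3.31 and −3.26, YNR064C by −2.94 and −3.26 and GSC2 by −2.72 and −2.69, all with adjusted p at or below 2.9e-05 in edgeR. Of all genes tested, 2.19% were lower in cnb1Δ at 48 h and 4.45% at 72 h. Of the ergosterol list, 8 of 27 were lower in cnb1Δ at 48 h and 14 at 72 h, and 1 was higher at each time. Of the 16 Crz1 targets, 11 were lower at 48 h and 14 at 72 h, and 0 were higher at either. These counts compare the strains directly at each time. The 1 target called at 12 h is of another measure, the difference of responses, which takes off the 0 h levels, so these counts show no trend in time. Among the 7 dampened inductions, 2 were lower at 48 h and 3 at 72 h. FIT1 differed by −0.07 at 48 h (adjusted p 0.95) and 0.16 at 72 h (0.79), and PLB2 by −0.09 (0.91) and −0.01 (0.99).

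Of the 29 lost decreases, 9 were higher in cnb1Δ at 48 h and 13 at 72 h. CWP1 differed by 2.74 at 48 h and 3.03 at 72 h (adjusted p 3.8e-06 and 8.1e-07 in edgeR). Of the 11 dampened decreases, 6 and 8 were higher, with MFA1 at 1.69 and 1.38, MFA2 at 1.61 and 1.67 and SST2 at 1.17 and 1.04. FUS1 was 1.25 and 1.12 higher, which did not pass (adjusted p 0.083 and 0.11). The cell cycle genes called at 12 h mostly missed the threshold at the later times. HO differed by 0.30 at 48 h (adjusted p 0.32) and 0.19 at 72 h (0.5), SWI4 by 0.21 (0.65) and 0.32 (0.31), RFA1 by 0.00 (0.99) and −0.01 (0.97), and POL1 by 0.02 (0.97) and −0.01 (0.99). CLB2 differed by −0.27 (0.39) and 0.10 (0.75). Of the 31 genes of the G1/S list, 0 were higher in cnb1Δ at 48 h or at 72 h. At these times 4 and 5 of the 31 were lower, beside 2.19% and 4.45% of all genes tested. Among the mutant-only rises, 7 of 19 were higher at 48 h and 8 at 72 h, with KDX1 at 1.47 and 1.39 and PRM5 at 1.47 and 1.08. HOR7, the leading mutant-only decrease, was lower by −2.46 at 48 h and −2.56 at 72 h.

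**Figure D4:**
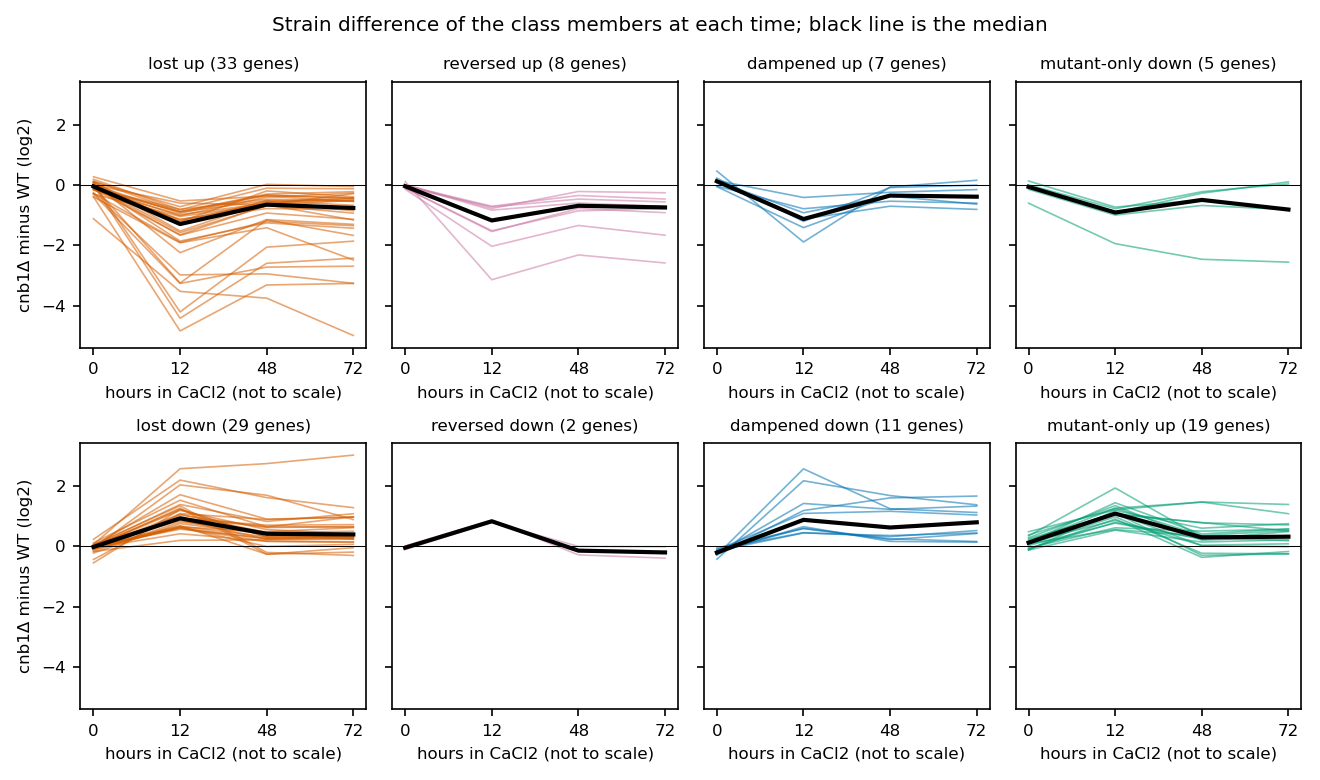
Strain difference (cnb1Δ minus WT, log2) of each class member at 0, 12, 48 and 72 h, with 1 thin line per gene and the class median in black; the time axis is not to scale. No member passed the test at 0 h; the median of the lost inductions is −0.65 at 48 h and −0.76 at 72 h, that of the reversed inductions −0.69 and −0.74, and that of the 2 reversed decreases −0.14 and −0.20.

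The number of genes called depended on which libraries were fitted. A fit of the 12 libraries alone called 525 of 6172 genes (8.51%), 262 higher (4.24%) and 263 lower (4.26%), all 114 genes among them, with 193 lost, 118 dampened, 53 reversed, 127 mutant-only and 34 enhanced responses. Of the 114 genes, 101 kept their class in that fit and 13 were in another. The median SE of the difference was 0.144 there and 0.2 over the 24 libraries. Leaving out single libraries lowered the count to between 64 (without the WT library numbered 3 at 0 h) and 100 (without the WT library numbered 1 at 12 h). The sign of all 114 differences was kept in each of these fits, and 50 of the 114 kept the call without any single library: 20 of 33 lost up, 8 of 29 lost down, 5 of 7 dampened up, 3 of 11 dampened down, 4 of 8 reversed up, 2 of 2 reversed down, 7 of 19 mutant-only up and 1 of 5 mutant-only down.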

How the data were processed

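Counts per gene for 7126 genes and 24 libraries were deposited by the authors as whole numbers, and a second deposited table holds TPM (transcript abundances scaled within each library), used only for alternatives. Per the submitters' processing notes, the tools listed are featureCounts and DESeq2 and the build is R64, with no version or role given. For the aligner, strandedness and multi-mapping reads, nothing is stated in the labels or headers, so overlapping genes and near-identical copies are uncertain. The replicate numbers come from the titles. No pair of replicates agreed within sampling noise (chi-square over genes 4.61 to 83.5 per degree of freedom).

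Genes were filtered with filterByExpr, scaled by TMM and fitted with edgeR 4.0.16 (R 4.3.3) as 8 group means over 24 libraries, with 16 residual degrees of freedom. P-values are two-sided and Benjamini-Hochberg adjusted over the 6253 genes tested. The SE was obtained from the log2 difference and the F statistic, as their ratio after taking the root of F. CPM are TMM-scaled. DESeq2 1.42.0 and limma 3.58.1 served as alternatives. Members, gene lists and tests were chosen with earlier results of these data known. Named genes are up to 5 per class and direction by size of difference (with a standard name and 20 CPM or more in the mean of some group), up to 4 called members per list and any Crz1 or calcium gene. Other class members were chosen after their values were seen. Motifs were searched in RefSeq sequence of build R64, and all motifs but the CDRE, and the 800-base window, were chosen after the data were seen.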

Additional observations from a re-analysis of the deposited data

Results flagged for a closer look

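The interaction test found a difference between the strains' responses to 12 h of CaCl2 for 114 genes, 61 with a higher and 53 with a lower response in cnb1Δ. By class these were 62 lost, 18 dampened, 10 reversed and 24 mutant-only responses. The named gene with the largest difference in each class and direction was YSR3 (−4.44, lost up), CWP1 (2.51, lost down), FIT1 (−2.35, dampened up), FUS1 (2.86, dampened down), FHN1 (−3.25, reversed up), RFA1 (0.90, reversed down), HO (1.59, mutant-only up) and HOR7 (−1.34, mutant-only down), all on the log2 scale. Single libraries were not screened for outliers, because each group holds 3.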

How the results depend on the processing

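In every alternative run, the sign was kept for each of the 114 genes it tested. Of the 114 calls, 24 held in every run that tested the gene, while 910 of 3066 gene results missed the threshold and 0 reversed. Counts are given in the order called, higher, lower, lost, dampened, reversed and mutant-only, against 114, 61, 53, 62, 18, 10 and 24 as reported. DESeq2's Wald test gave 231, 126, 105, 115, 43, 13 and 55. The 12 libraries alone gave 525, 262, 263, 193, 118, 53 and 127. Leaving out single libraries gave 64 to 100, 26 to 56, 35 to 45, 37 to 55, 8 to 17, 2 to 8 and 9 to 20. Leaving out both cnb1Δ libraries of a number gave 38, 12, 26, 28, 5, 1 and 4 (number 3), 37, 15, 22, 29, 5, 0 and 3 (number 1) and, chosen after seeing the data, 40, 22, 18, 26, 6, 2 and 6 (number 2). Leaving out the 48 h and 72 h libraries numbered 1, also chosen after seeing the data, gave 398, 217, 181, 156, 86, 40 and 99. The 12-library and late-library fits differ from the reported one in which libraries set the filter, scaling and spread, and the other causes were not tested. Scaling by total counts gave 93 called, with 10 mutant-only. limma on log2(TPM + 1), log2(TPM + 0.1) and unfiltered log2(TPM + 1) called 33, 32 and 30 higher, which is 37.9%, 37.6% and 38% of its calls against 53.5% as reported. At an adjusted p under 0.01, 33 lost, 5 dampened, 1 reversed and 6 mutant-only responses were left, and with a difference of at least 1 (log2) 36, 11, 4 and 8. Defining lost by the size of the cnb1Δ response relative to that of WT, in place of its test, gave 27 reversed. The remaining count settings (DESeq2's size factors, no filter, a mean of at least 10 CPM) stayed within 1.5 times.

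Same-numbered libraries deviated together to varying degrees (correlations 0.0947 to 0.44 within cnb1Δ and 0.0149 to 0.366 between strains at 12 h). Every library matched its own number best in WT and between strains at 0 h. Of 3 libraries, 2 did so within cnb1Δ and 1 between strains at 12 h. The labels do not say whether the numbers pair the samples, so pairing stays undecided and the reported fit used no block. A replicate block gave 235, 134, 101, 100, 47, 21 and 61, and a replicate block within strain 239, 131, 108, 100, 52, 24 and 58. With 3 libraries a group, the median SE of a difference was 0.2 (log2). The smallest differences called were 0.37 among higher and −0.56 among lower responses. DFG5, at −0.43 ± 0.11, was not called, so differences well above the median SE could be missed.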

Other observations

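Of the 67 measured genes of mitochondrial ribosomal proteins, 1 (MRPL28) had a higher response in cnb1Δ in edgeR, beside 0.976% of all genes tested, while 66 differences were above 0, with a median of 0.276. The call of MRPL28 was lost without any 1 of 9 libraries (adjusted p up to 0.1). Their median response was 0.129 in cnb1Δ and −0.223 in WT, of which the cnb1Δ value is 0.335 and the WT value −0.0544 under scaling by total counts. At 48 h 28 of the 67 and at 72 h 33 were higher in cnb1Δ, beside 2.7% and 4.67% of all genes, and 0 were lower. The 133 genes of ribosome biogenesis had a median difference of −0.155 with 125 below 0, and 0 passed the test at 12 h, 48 h or 72 h in edgeR, while 4 had a lower response over the 12 libraries alone. Of the 133, 89 rose in cnb1Δ and 107 in WT, beside 22.1% and 24.6% of all genes.

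The seripauperin, DAN and TIR genes, a family of cell wall proteins induced at low oxygen and in the cold, had the lowest list median of all lists, −1.03 over 23 tested members, with 20 below 0. Over the 24 libraries 1 (PAU6) passed the test, and over the 12 libraries alone 10 of 18 did. Many of these genes are near-identical copies, and their reads cannot be assigned with certainty. The 10 core histone genes had a median difference of −0.317, with 9 below 0 and 0 called.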
